A study of Mus musculus with 36 samples.

Results

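The 31 genes described here act in the uptake, activation, transport and oxidation of fatty acids. They were taken by symbol from a list of fatty acid oxidation genes, and all 31 had a row among the 20720 nuclear genes of the deposited tables. Single cells of the mouse heart were measured with SORT-seq, in which a sorter places single cells in the wells of a plate and each transcript receives a short random tag, the unique molecular identifier (UMI). UMIs counted per gene and well were therefore the unit of every value. The question asked of the data was how these genes stood in cardiomyocytes and in the other cells of the ventricle after ischemic injury.

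Beating cardiomyocytes draw most of their energy from fatty acids. A fatty acid that enters the cell is bound by a carrier protein, joined to coenzyme A, and passed into the mitochondrion as carnitine ester by the carnitine palmitoyltransferases and their translocase. Inside, a cycle of dehydrogenation, hydration, a second dehydrogenation and thiolysis shortens the chain, and the electrons of the first step reach the respiratory chain through the electron transfer flavoprotein. PPARα, the product of Ppara, is a nuclear receptor that activates many of these genes in the heart.

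All samples came from male C57BL/6 mice of 8 weeks, and the labels give the left ventricle, infarcted region, as tissue. Hearts after sham surgery filled 4 plates at day 1 and 8 plates at day 14. Ischemia-reperfusion (IR), in which the left anterior descending artery was tied for 1 hour and then released, filled 9 plates at day 1, 7 at day 3 and 3 at day 14. Myocardial infarction (MI), in which the same artery stayed tied, filled 5 plates at day 3. A day 3 sham group is not analysed here, and both day 3 groups were set against the equally weighted mean of the day 1 and day 14 sham groups. The labels do not tie plates to mice, so plates may share a mouse, and p-values over plates may then be too small.

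Of 13824 wells, 3146 held at least 1000 UMIs of nuclear genes and were kept as cells. Plates held between 176614 and 5551870 UMIs in total. The median per kept well was 13120 UMIs in MI and between 2217 and 3230 in the other groups, and the MI plates have a treatment note of their own, so that injury by MI, depth and handling cannot be told apart. In cardiomyocyte-like wells the mitochondrial share of all UMIs stood at 2.38% and 15.5% (medians of the 2 MI plates with at least 5 such wells), against 66.6% to 81.0% as means of the other groups, and the ribosomal precursor Rn45s at 4.25% against 16.8% to 25.6% of nuclear UMIs. Clustering without the 31 genes gave 1148 wells named cardiomyocyte-like and 633 named macrophage-like, while 406 were endothelial-like, 301 fibroblast-like, 156 neutrophil-like, 21 mural-like and 481 unnamed. All 12 cardiomyocyte markers, among them Myh6 and Tnnt2, were raised in the 2 largest cardiomyocyte-like clusters, 7 in the cluster led by Sprr1a and 6 in that led by Lgals4.

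Cardiomyocyte-like wells were unevenly spread. Sham day 1 held 233, sham day 14 held 237, IR day 3 held 281 and IR day 14 held 344, against 34 in IR day 1 and 19 in MI. Plates with at least 5 such wells entered the fits, which left 4 plates of sham day 1, 5 of sham day 14, 3, 5 and 3 of IR at days 1, 3 and 14, and 2 of MI. Replicates 2 and 7 of sham day 14 matched well by well (34 wells of replicate 2 and 42 of replicate 7) and were averaged as 1 plate, called 2+7. Replicate 2 of that group also held 16 wells that matched replicate 6 of IR day 3. Among IR day 1 plates, 4 wells of replicate 3 matched replicate 2, 17 wells of replicate 9 matched replicate 5 and 7 matched replicate 8. Without replicate 2 of sham day 14 and without the matched wells, every count of called members in cardiomyocyte-like wells stayed within 1.5 times its value. The other classes were not refitted without them.

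Cardiomyocyte-like wells also differed by cluster between the groups. One cluster, led by Sprr1a, Nppa, Nmrk2 and Myh7, genes of the stressed myocardium, held all 19 MI wells, 26 of the 34 wells of IR day 1 and 182 of the 281 wells of IR day 3. In sham day 1 it held 6 of 233 wells, and the rest lay in clusters led by Myh14, by Fbp2 and by Lgals4. In sham day 14 it held 3 of 237 wells and in IR day 14 it held 32 of 344. Comparisons between these groups were therefore also comparisons between these clusters.

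Hadha and Hadhb, which encode the α and β subunits of the mitochondrial trifunctional protein, lie head to head on chromosome 5 (GRCm38, gene models of GENCODE M21). Hadha runs on the minus strand from 30118304 to 30155162 and Hadhb on the plus strand from 30155248 to 30184593. The stretch between them, chr5:30155163-30155247, plus strand, is shown because both genes were among those that fell most clearly in MI. It is 85 bases long with 69.4% G or C (sequence from the RefSeq promoter table of GRCm38.p6).
Hadha to Hadhb: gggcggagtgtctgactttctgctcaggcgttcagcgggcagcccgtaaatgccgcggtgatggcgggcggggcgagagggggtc

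The same table holds 250 bases before and 50 after the start of 25 of the 31 genes. Acaa2, Acat1, Acot13, Cpt1b, Decr1 and Dgat2 have no entry. AGGTCA, the hexamer bound by many nuclear receptors, PPARα among them, was searched for on both strands, where TGACCT is its reverse complement. It was found for 6 of the 25 genes (24.0%) and for 18.1% of all 27025 genes of the table, in any window of the gene. A direct repeat of AGGTCA with 1 base between the copies, the arrangement PPARα binds as a dimer, was found for 0 of the 25 genes and for 0.0481% of all genes. The letters around the hexamer, in capitals, are shown for Acadvl and Acadm, called in MI, and for Plin5, called in IR day 3. The Acadvl stretch is chr11:70015488-70015537, the Acadm stretch chr3:153944865-153944893 and the Plin5 stretch chr17:56117691-56117740, all upstream of the start and on the minus strand.
Acadvl: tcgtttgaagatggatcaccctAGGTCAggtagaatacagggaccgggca
Acadm: gTGACCTtcgggctccggtgacactgggc
Plin5: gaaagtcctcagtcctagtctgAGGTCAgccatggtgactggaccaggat

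As a set, the 31 genes made up between 0.418% and 2.13% of the UMIs of cardiomyocyte-like wells on a plate of the fits. The 4 plates of sham day 1 stood at 1.35%, 1.17%, 1.43% and 1.05%, and the 5 of sham day 14 at 1.21%, 2.13%, 1.11%, 1.47% and 1.23%. The 3 fitted plates of IR day 1 stood at 0.427%, 0.608% and 0.418%, all below every sham plate. IR day 3 gave 1.61%, 1.33%, 1.02%, 1.47% and 0.833%, and IR day 14 gave 1.57%, 1.3% and 1.06%, and both overlapped with sham. The 2 MI plates, 0.832% and 0.980%, lay below every sham plate, one just under the lowest plate of IR day 3 and the other within its range. Without the precursor Rn45s they stood at 0.894% and 0.996%, below all plates of IR day 3 (1.18% to 1.81%), and the mean difference of MI from both sham groups was -0.843 instead of -0.435 percentage points and that from IR day 3 -0.547 instead of -0.346. All 1148 cardiomyocyte-like wells held at least 1 UMI of the set, and the median well held 1.27% at day 1 and 1.40% at day 14 after sham surgery, 0.651% after MI, and 0.647%, 1.09% and 1.33% at days 1, 3 and 14 after IR.

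The low share of IR day 1 belonged to the 3 plates of the fit. Replicates 1, 2 and 3 held 23 of the 34 wells, with 80302 UMIs. The other 11 wells lay on replicates 4 to 9, between 1 and 3 wells on each. Their shares ran from 0.551% to 2.60% with a median of 1.57%, and pooled they held 1.90%, above each of the 4 sham day 1 plates. With these plates included, the mean difference from sham day 1 was -0.0112 percentage points instead of -0.766. In MI, by contrast, the 3 plates too small for the fit stood at 0.610%, 0.778% and 0.663%, below both fitted plates. These shares are of nuclear UMIs. With mitochondrial UMIs in the total, which are scarce in the MI wells, the mean difference of MI from both sham groups turned from -0.435 to 0.589 percentage points and that from IR day 3 turned from -0.346 to 0.495.

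Sarcomere and other cardiomyocyte marker transcripts moved alongside the set. The 12 markers together made up 8.97% ± 0.96 (SD, n = 4 plates) of UMIs in sham day 1, 11.2% ± 1.3 (n = 5) in sham day 14, 7.37% ± 0.81 (n = 2) in MI and 4.67% ± 0.54 (n = 3) in IR day 1. Per 100 UMIs of these markers the set had 14.0 ± 1.7 UMIs at day 1 and 12.7 ± 2.3 at day 14 after sham surgery. It had 10.3 ± 1.1, 13.1 ± 2.0 and 10.9 ± 1.6 at days 1, 3 and 14 after IR and 12.3 ± 0.1 after MI. On this scale the 2 fitted MI plates lay inside the sham range of 10.9 to 16, the 3 small MI plates gave 8.21 to 11.8, and 2 of the 3 plates of IR day 14 (10.1 and 9.70) lay below that range. The 3 fitted IR day 1 plates (9.42 to 11.5) lay below all sham day 1 plates (12.2 to 16), while the 6 small IR day 1 plates gave 16.2 to 30.5. Markers of other cell types were at 0.119% in cardiomyocyte-like wells of sham day 1 and 0.0766% in those of sham day 14, at 0.324%, 0.329% and 0.1446% in IR of days 1, 3 and 14, and at 0.198% in MI. The part of these shifts in the results was not tested. Fewer transcripts of the set and more of other genes cannot be told apart in shares.

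**Figure D1:**
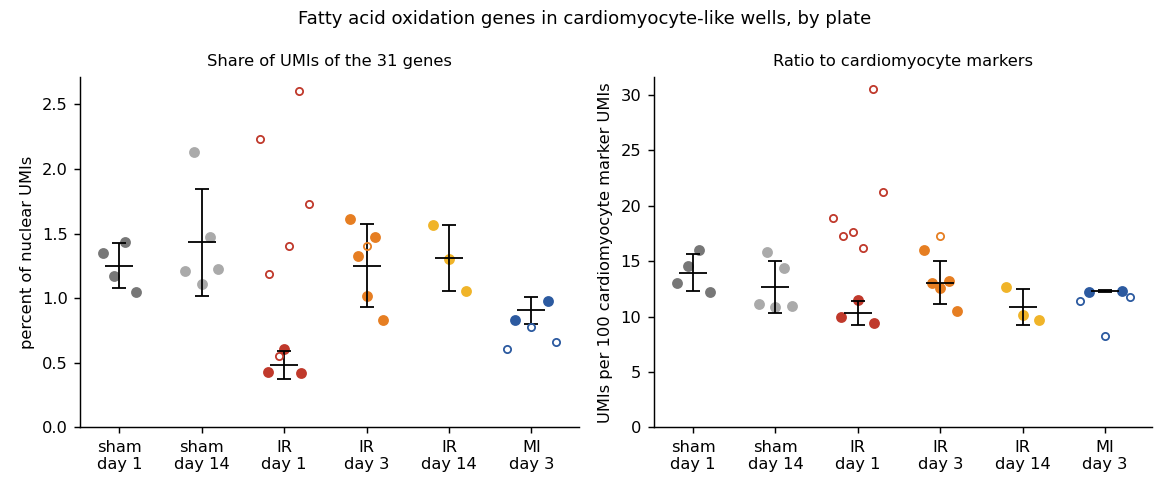
Summed share of the 31 genes in cardiomyocyte-like wells, 1 point per plate, by group. The left panel gives percent of nuclear UMIs and the right panel UMIs per 100 UMIs of the 12 cardiomyocyte markers. Filled points are plates with at least 5 wells (in the fits) and open points plates with fewer, and bars give mean ± SD of the filled points. For IR day 1 the 3 filled points lie between 0.418% and 0.608%, and the open points reach 2.60%.

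At day 1 after IR, 24 of the 29 members tested were lower than in sham day 1 and 0 were higher (edgeR quasi-likelihood test, adjusted p under 0.05 over 4281 genes). Of all genes tested, 9.25% were called lower. The median log2 difference was -2.29 over the members and -0.57 over all genes. DESeq2's median-ratio scaling moved the all-gene median to 0.08 and the member median to -1.66, so relative to all genes the members stood 1.72 lower on the log2 scale in one and 1.74 in the other. Under that scaling 12 members were called, and with DESeq2 8 (Acadm, Dgat2, Ech1, Etfa, Fabp3, Hadhb, Mlycd and Slc27a1), all lower. The split of all calls turned with it, since 29.2% of them were higher with TMM scaling, 70.9% with the other scaling and 79.6% with DESeq2. With 1 well per plate as the minimum, which brings in the 6 small plates, 23 members were tested and 14 called, all lower. The calls lost there were those of Acat1, Eci1, Etfa, Fabp3, Hadh and Slc25a20, and Acot2, Mlycd, Ppara and Slc27a1 no longer passed the filter. Dgat2, Ech1 and Hadhb were called under each alternative run and with each plate left out. Without replicate 3 of IR day 1 the count was 14.

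At day 3 after IR, 2 members were lower than in both sham groups, where 2.10% of all genes were. The member median was -0.53 against -0.02 over all genes. Of all genes called, 66.7% were higher with TMM scaling, 78.1% with median-ratio scaling and 80.0% with DESeq2. At day 14 after IR, 0 members were called against sham day 14 with edgeR and 0 with DESeq2, 1 had an unadjusted p under 0.05, and 0.0467% of all genes were lower. The member median was then -0.13 against 0.04. Day 14 against day 3 of IR gave 0 called members with either tool and 4 with an unadjusted p under 0.05, where 2.48% of all genes were lower (106 genes, with 39 higher). Of the 29 log2 differences 27 were above 0, while 8 members were lower in CPM.

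In MI at day 3, 17 members were lower than in both sham groups and 0 higher, where 22.2% of all genes were lower. The member median was -1.42 against -0.24 over all genes. Of all genes called, 38.7% were higher with TMM scaling, 51.4% with median-ratio scaling and 53.6% with DESeq2, and 14 members were called with either of the latter. Set directly against IR at day 3, MI had 7 lower members and 0 higher ones, where 15.9% of all genes were lower. The 2 MI plates held 12 wells with 123135 UMIs. Without replicate 2 the count against sham was 4, and without replicate 3 it was 6, and the remaining plate is then assumed to vary like the other groups. Acsl1, Dgat2 and Hadhb were called lower than in sham under each alternative run and with each plate left out. Against IR day 3 the count was 3 and 2 in the same order, and 4 without replicate 4 of IR day 3. Acadm, Hadha and Slc27a1 were lost in each of these 3 fits, Acsl1 without MI replicate 2, and Acadvl and Hadhb without MI replicate 3, while Dgat2 was called in all of them. All members called in these comparisons were lower under both scalings, with DESeq2 and in levels without any such scaling.

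**Figure D2:**
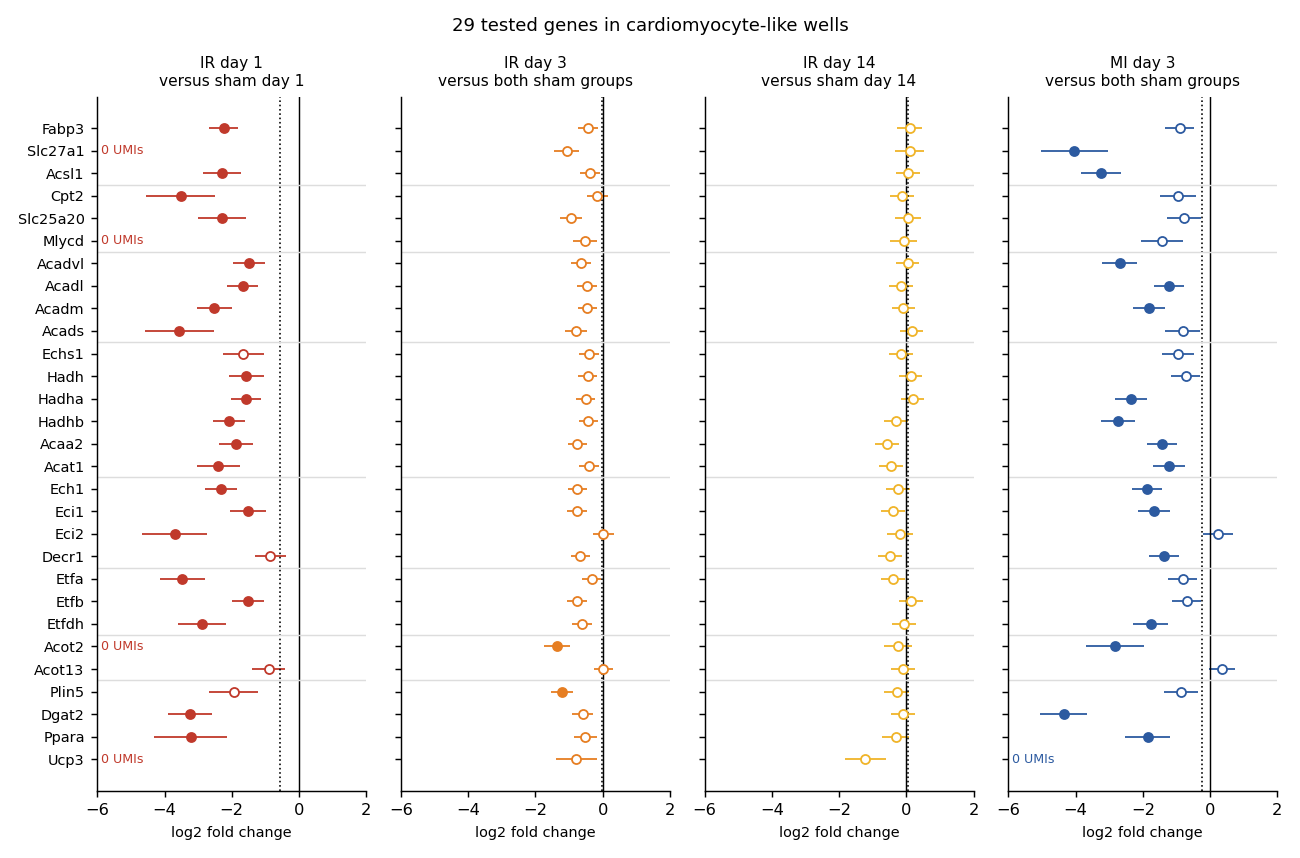
Log2 differences of the 29 tested members in cardiomyocyte-like wells (horizontal axis), in panels for IR day 1 against sham day 1, IR day 3 against both sham groups, IR day 14 against sham day 14 and MI against both sham groups. Points are edgeR estimates, bars their SE, filled points have an adjusted p under 0.05, the dotted line is the median of all genes, and members with 0 UMIs in the injured group are marked as such and have no point. Of the members, 24, 2, 0 and 17 were called, and all filled points lie left of 0.

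Values per gene follow in the order of the pathway, as counts per 1000000 UMIs (CPM) on each plate before TMM scaling. Log2 differences are after it and carry their standard error (SE).

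Fabp3 (chromosome 4, 130308595 to 130315463), the fatty acid carrier of heart muscle, gave 2514, 3029, 3049 and 2554 CPM on the plates of sham day 1. On those of IR day 1 it gave 746, 1466 and 662 CPM. These 3 plates did not overlap with sham, and the log2 difference was -2.24 ± 0.44 (edgeR adjusted p = 0.00017), a call that was lost with 1 well per plate as the minimum (adjusted p = 0.053). Pooled over the 6 small plates of IR day 1, Fabp3 was at 5504 CPM. MI plates gave 2356 and 2512 CPM, within the 2071 to 4251 CPM of the 9 sham plates, and the log2 difference of -0.90 ± 0.43 did not pass (adjusted p = 0.088). It was called with 1 well per plate as the minimum (adjusted p = 0.016), with DESeq2 and in wells of at least 2000 UMIs. In IR day 3 the plates ran from 1374 to 4832 CPM, a wider range than in sham.

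Slc27a1 (chromosome 8, 71568882 to 71587302), a fatty acid transport protein of the plasma membrane, had 0 UMIs on the 3 fitted plates of IR day 1 against 147, 68.6, 113 and 137 CPM in sham day 1. Against a floor of 3 UMIs over the group it was at least 3.19-fold lower there (edgeR adjusted p = 0.0019). The 6 small plates of IR day 1 held 4 UMIs of it, 161 CPM when pooled and thus not below sham, and the call was lost in wells of at least 2000 UMIs and with at least 10 wells per plate. In MI it had 0 and 22.6 CPM, 1 UMI in all, and was called lower than in sham (log2 difference -4.04 ± 1.00, adjusted p = 0.00084) and than in IR day 3 (-2.96 ± 1.15, adjusted p = 0.049). The latter call held in 2 of 8 alternatives and in 3 of 7 fits with a plate left out, and both rest on very few molecules. The 3 small MI plates held 7 UMIs, 65.6 CPM when pooled.

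Acsl1 (chromosome 8, 46471037 to 46536051), the acyl-CoA synthetase that activates long-chain fatty acids, stood at 413, 252, 366 and 288 CPM in sham day 1 and between 268 and 419 CPM in sham day 14. On the IR day 1 plates it was at 82.9, 272 and 26.5 CPM, with 1 of 3 plates inside the sham range (log2 difference -2.29 ± 0.58, edgeR adjusted p = 0.004), and it was not called with DESeq2 or without replicate 3 of IR day 1. In MI it was at 50.7 and 67.9 CPM, below all sham and all IR day 3 plates. The differences there were -3.24 ± 0.60 from sham (adjusted p = 1e-05) and -2.86 ± 0.63 from IR day 3 (adjusted p = 0.00037).

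Dgat2 (chromosome 7, 99153658 to 99182719) stores acyl-CoA as triglyceride. Its plates of sham day 1 stood at 467, 257, 555 and 281 CPM and those of sham day 14 at 449, 566, 456, 245 and 373 CPM. IR day 1 gave 0, 109 and 79.4 CPM, and MI gave 50.7 and 0 CPM, 4 UMIs in all. The fitted plates of both groups lay below every sham plate, and the 6 small plates of IR day 1 were at 80.3 CPM when pooled. The log2 differences of Dgat2 were -3.24 ± 0.66 in IR day 1 (edgeR adjusted p = 0.00027), -4.36 ± 0.70 in MI (adjusted p = 5.1e-07) and -3.76 ± 0.74 between MI and IR day 3 (adjusted p = 5.9e-05).

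The carnitine shuttle was measured thinly. Cpt1b, the carnitine palmitoyltransferase 1 of muscle, had 3 UMIs in all wells, 1 on each of 3 plates, and overlaps its neighbour Chkb in the annotation (chromosome 15, 89416405 to 89425863), and whether reads of the locus were counted elsewhere was not tested. Cpt1a, the form of liver and most other tissues, had 86 UMIs in cardiomyocyte-like wells. Its mean levels were 11.3 to 19.5 CPM in all groups but MI, where it had 0 UMIs, which allows up to 24.4 CPM. Neither Cpt1b nor Cpt1a passed the filter on low counts, so neither was tested. Cpt2, which turns the ester back into acyl-CoA inside the mitochondrion, was at 98.2 ± 35.9 CPM in sham day 1 and at 8.82 ± 15.3 CPM, 1 UMI, in IR day 1 (called lower), and at 106 ± 42 CPM in MI (not called). The translocase gene Slc25a20 had 164 ± 23 CPM in sham day 1, 40.3 ± 39.7 CPM in IR day 1 (called lower) and 143 ± 23 CPM in MI (not called). With 1 well per plate as the minimum, Cpt2 (edgeR adjusted p = 0.019) and Slc25a20 (adjusted p = 0.037) were called lower in MI, and Slc25a20 was no longer called in IR day 1.

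Among the acyl-CoA dehydrogenases, which take the first step of the cycle, Acadvl acts on very long chains. It had 646, 337, 548 and 604 CPM in sham day 1, 415, 217 and 238 CPM in IR day 1 and 190 and 45.3 CPM in MI. The MI plates lay below all sham and IR day 3 plates, with a log2 difference of -2.69 ± 0.52 from sham (edgeR adjusted p = 2.5e-05). That from IR day 3 was -2.03 ± 0.54 (edgeR adjusted p = 0.0035, lost without wells carrying markers of other classes). In IR day 1, 1 plate overlapped with sham (-1.49 ± 0.47, edgeR adjusted p = 0.023). The IR day 1 call was lost with DESeq2, with median-ratio scaling, in wells of at least 2000 UMIs and without replicate 2 or 3 of IR day 1.

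Acadm, the medium-chain enzyme, had 603, 577, 703 and 525 CPM in sham day 1, 166, 0 and 238 CPM in IR day 1 and 342 and 294 CPM in MI. The fitted plates of IR day 1 and those of MI lay below every sham plate, the lowest of which was at 364 CPM. Pooled over the 6 small plates of IR day 1, Acadm was at 924 CPM, above every sham day 1 plate. The log2 differences were -2.51 ± 0.53 in IR day 1 (edgeR adjusted p = 0.0004), -1.82 ± 0.47 in MI (adjusted p = 0.0012) and -1.37 ± 0.48 from IR day 3 to MI (adjusted p = 0.03), the last of which held in 6 of 9 alternatives and in 3 of 7 fits with a plate left out. Acadl, for long chains, was at 926 ± 306 CPM in sham day 1, 461 ± 120 in IR day 1 and 808 ± 426 in MI and was called lower in both. Its call in MI was lost against sham day 1 alone, without the filter, and without either MI plate, any 1 of replicates 1 to 3 of sham day 1 or any 1 of replicates 1, 5 and 8 of sham day 14. Acads, for short chains, was at 103 ± 24, 8.82 ± 15.3 (1 UMI) and 114 ± 1 CPM in the same order, called lower in IR day 1 and not in MI, where it was called with 1 well per plate as the minimum (adjusted p = 0.038).

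Hydration, the second dehydrogenation and thiolysis of long chains are the work of the trifunctional protein. Hadhb had 1034, 920, 971 and 612 CPM in sham day 1, 456, 217 and 265 CPM in IR day 1 and 329 and 181 CPM in MI. Hadha, its head-to-head neighbour, had 754, 525.9, 722 and 662 CPM in sham day 1, 290, 489 and 291 CPM in IR day 1 and 177 and 272 CPM in MI. For Hadha and Hadhb the MI plates lay below all sham and IR day 3 plates and the fitted IR day 1 plates below all sham plates. Pooled over the 6 small plates of IR day 1, Hadhb was at 1245 CPM, above every sham day 1 plate, and Hadha at 442 CPM, below every one. The log2 differences in IR day 1 were -2.09 ± 0.48 for Hadhb (edgeR adjusted p = 0.0016) and -1.58 ± 0.45 for Hadha (adjusted p = 0.011). In MI they were -2.74 ± 0.51 (adjusted p = 1e-05) and -2.35 ± 0.48 (adjusted p = 6.4e-05) from sham, and -2.31 ± 0.52 (adjusted p = 0.00045) and -1.84 ± 0.50 (adjusted p = 0.0038) from IR day 3. The last of these, that of Hadha, was called in 4 of 7 fits with a plate left out. The IR day 1 call of Hadha was lost with DESeq2, with median-ratio scaling and with the replicate number as a block. It was also lost in wells of at least 2000 UMIs and without replicate 1 or 3 of IR day 1.

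Hadh, the 3-hydroxyacyl-CoA dehydrogenase, and Echs1, the short-chain enoyl-CoA hydratase, were at 340 ± 97 and 185 ± 28 CPM in sham day 1 and at 378 ± 105 and 181 ± 31 CPM in MI, with log2 differences of -0.72 ± 0.42 and -0.95 ± 0.47 that did not pass (edgeR adjusted p = 0.18 and 0.11). For Hadh the sign turned with the scaling, since its CPM was higher in MI than in either sham group (357 ± 146 in sham day 14). Echs1 was called lower in MI with 1 well per plate as the minimum (adjusted p = 0.045). Hadh in IR day 1 was called lower (180 ± 94 CPM), though not with 1 well per plate as the minimum, and Echs1 was not (113 ± 137 CPM). The genes of thiolases Acaa2 (582 ± 102 CPM in sham day 1 and 817 ± 287 in sham day 14) and Acat1 (263 ± 61 and 432 ± 189 CPM) were called lower in IR day 1 (280 ± 278 and 72.9 ± 84.7 CPM) and in MI (456 ± 251 and 260 ± 81 CPM), with plates that overlapped with sham in CPM in MI and, for Acaa2, also in IR day 1. The MI call of Acat1 was lost against sham day 1 alone, with DESeq2 and without the filter. Its call in IR day 1 was lost with 1 well per plate as the minimum. Pooled over the 6 small plates of IR day 1, Acaa2 was at 884 CPM and Acat1 at 643 CPM. Whether long-chain and short-chain enzymes differed from each other in MI was not tested.

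Unsaturated fatty acids need isomerases and a reductase besides. Ech1, an isomerase of dienoyl-CoA, had 1106, 726, 1047 and 863 CPM in sham day 1. It had 166, 380 and 318 CPM on the fitted plates of IR day 1 and 519 and 362 CPM in MI, with no overlap of either with sham. Pooled over the 6 small plates of IR day 1, Ech1 was at 1768 CPM, above every sham day 1 plate. Its log2 differences were -2.32 ± 0.47 (edgeR adjusted p = 0.00026) and -1.88 ± 0.45 (adjusted p = 0.00059). Eci1, an enoyl-CoA isomerase, was at 301 ± 93 CPM in sham day 1, 148 ± 99 in IR day 1 and 200 ± 58 in MI, called lower in both. The first call was lost with 1 well per plate as the minimum and with DESeq2, the second without wells carrying markers of other classes. Eci2 was at 112 ± 26 CPM in sham day 1 and 8.82 ± 15.3 (1 UMI, called lower) in IR day 1. In MI it was at 210 ± 8 CPM (log2 difference 0.24 ± 0.44, edgeR adjusted p = 0.70). Whether Eci1 and Eci2 differed from each other was not tested. Decr1, the dienoyl-CoA reductase, stood at 328 ± 70 CPM in sham day 1, 289.1 ± 79 in IR day 1 (not called) and 229 ± 35 in MI (called lower, but not without wells carrying markers of other classes, replicate 3 of sham day 1 or either MI plate).

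Electrons from the dehydrogenases pass to the flavoprotein of Etfa and Etfb and on to the oxidoreductase of Etfdh. Etfa had 445, 400, 393 and 252 CPM in sham day 1 and 82.9, 54.3 and 26.5 CPM in IR day 1, with no overlap on these 3 plates (log2 difference -3.47 ± 0.67, edgeR adjusted p = 0.00011), a call that was lost with 1 well per plate as the minimum (adjusted p = 0.18). Pooled over the 6 small plates of IR day 1 it was at 884 CPM. In MI its plates stood apart from each other, at 266 and 679 CPM, and it was not called (-0.82 ± 0.43, adjusted p = 0.12). Etfdh had 291, 234, 317 and 137 CPM in sham day 1, 0, 109 and 52.9 CPM in IR day 1 and 101 and 181 CPM in MI, where 1 of the latter lay inside the sham range, and was called lower in both (-2.88 ± 0.70, adjusted p = 0.0029, and -1.76 ± 0.52, adjusted p = 0.0056). Its call in IR day 1 was lost with DESeq2, in wells of at least 2000 UMIs and with at least 10 wells per plate. Etfb was at 562 ± 110 CPM in sham day 1, 280 ± 156 in IR day 1 (called lower) and 581 ± 106 in MI (not called).

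The 2 members lower at day 3 after IR were Plin5, a coat protein of lipid droplets that ties them to mitochondria, and Acot2, a mitochondrial acyl-CoA thioesterase. Plin5 ran from 91.1 to 171 CPM over the 9 sham plates and was at 0, 94.0, 37.0, 16.5 and 63.0 CPM in IR day 3, with a single plate inside the sham range (log2 difference -1.22 ± 0.34, edgeR adjusted p = 0.012). In IR day 14 it was at 156, 103 and 92.2 CPM and in MI at 76.0 and 204 CPM. In IR day 1 it was at 33.4 CPM in wells of the cluster led by Sprr1a and 65.0 CPM in the others. These stood at 177 and 131 CPM in sham day 1. Plin5 was not called in IR day 1, but was called lower there without wells carrying markers of other classes. The 6 small plates held 0 UMIs of it. Its effect of IR at day 1 minus that at day 3 was -0.73 ± 0.82 (edgeR adjusted p = 0.67). Acot2 ran from 0 to 115 CPM in sham and was at 161, 37.6, 37.0, 16.5 and 23.2 CPM in IR day 3, where the highest value is 1 UMI on the shallowest plate (-1.35 ± 0.39, adjusted p = 0.02). Both calls were lost against sham day 14 alone, without the filter on low counts, with DESeq2 and without replicate 6 of IR day 3, and with 1 well per plate as the minimum neither gene passed the filter. The Plin5 call was also lost without wells carrying markers of other classes, and the Acot2 call without replicate 1 of sham day 1 or replicate 4 or 7 of IR day 3. Without replicate 1 of sham day 1 there was 1 call, and without replicate 6 of sham day 14 there were 4. Acot2 had 0 UMIs on the fitted plates of IR day 1, at least 2.12-fold below sham day 1 (edgeR adjusted p = 0.0079). It had 0 among the 24893 UMIs of the 6 small plates. Acot2 was not called in IR day 1 with DESeq2, in wells of at least 2000 UMIs or without replicate 3 of IR day 1. In MI it had 0 and 45.3 CPM, 2 UMIs in all, and was called lower than in sham (-2.82 ± 0.85, adjusted p = 0.0066), a call that was lost with DESeq2 and without replicate 2 of MI.

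Acot13, another thioesterase, was one of 2 members, with Eci2, whose log2 difference in MI was above 0. Its plates stood at 294, 240, 246 and 266 CPM in sham day 1, 233 to 474 CPM in sham day 14 and 747 and 521 CPM in MI. The MI plates lay above all 9 sham plates in CPM, while the log2 difference after TMM scaling was 0.35 ± 0.38 (edgeR adjusted p = 0.48). Mlycd, which breaks down malonyl-CoA, the inhibitor of carnitine palmitoyltransferase 1, had 0 UMIs on the fitted plates of IR day 1 against 64.6, 114, 144 and 57.6 CPM in sham day 1, at least 2.62-fold lower (adjusted p = 0.004). The 6 small plates held 2 UMIs of it, 80.3 CPM when pooled and inside the sham range, and the call was lost in wells of at least 2000 UMIs and with at least 10 wells per plate. In MI it was at 63.3 and 45.3 CPM and was not called. Ppara was at 82.0 ± 26.0 CPM in sham day 1, 13.8 ± 23.9 in IR day 1 (1 UMI) and 46.6 ± 30.1 in MI (5 UMIs), called lower in both. Both calls were lost with DESeq2 and with median-ratio scaling, and the 6 small plates of IR day 1 held 3 UMIs of it, 121 CPM when pooled. Ucp3, a carrier of the inner mitochondrial membrane, was at 16.6 ± 15.1 CPM in sham day 1 and 41.9 ± 29.6 CPM in sham day 14. It had 0 UMIs on the fitted plates of IR day 1 (not called) and of MI (edgeR adjusted p = 0.036 against both sham groups). The MI call was lost against sham day 1 alone, with DESeq2, with median-ratio scaling, without Rn45s and without wells carrying markers of other classes. Ucp3 no longer passed the filter without any 1 of replicates 1 to 3 of sham day 1 or replicates 1, 5 and 8 of sham day 14. A count of 0 in MI allows up to 24.4 CPM, above the level of sham day 1.

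**Figure D3:**
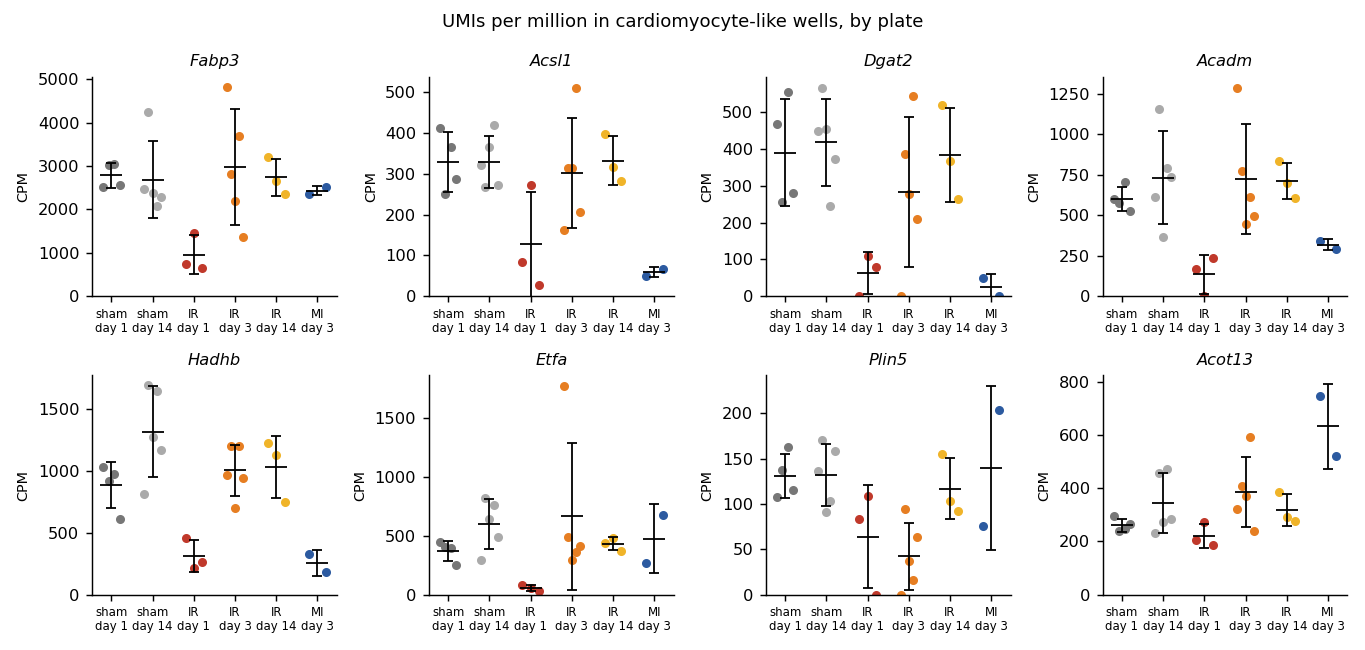
Levels of 8 members in cardiomyocyte-like wells in CPM, 1 panel per gene, by group, with bars for mean ± SD. Each point is 1 plate with at least 5 such wells. Dgat2, Acsl1 and Hadhb are low in IR day 1 and in MI, Etfa is low in IR day 1, Plin5 has its lowest mean in IR day 3, and Acot13 is highest in MI.

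Whether the effect of IR differed between days was tested as a difference of differences. Against the effect at day 14, the effect at day 1 was lower for 13 of 29 members, where 5.23% of all genes were. Fabp3 differed by -2.34 ± 0.56 on the log2 scale (edgeR adjusted p = 0.0071), Dgat2 by -3.14 ± 0.78 (adjusted p = 0.0088) and Etfa by -3.07 ± 0.79 (adjusted p = 0.012). Against the effect at day 3, it was lower for 7 members, Etfa (-3.14 ± 0.70, adjusted p = 0.0048) and Fabp3 (-1.81 ± 0.46, adjusted p = 0.014) among them, where 2.31% of all genes were. Under median-ratio scaling the counts were 3 and 2. These tests rest on the same 3 plates of IR day 1, and with 1 well per plate as the minimum Etfa and Fabp3 were not called in IR day 1 against sham day 1.

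In IR day 3 and IR day 14 the cluster led by Sprr1a had less of the set than the other cardiomyocyte-like wells. At day 3 its 182 wells held 1.01% and the 99 other wells 1.39%. The order was the same on each of the 4 plates with at least 5 wells of both kinds, for example 1.11% and 1.52% on replicate 4. In IR day 14 its 32 wells held 1.13% and the 312 other wells 1.38%. In IR day 1 the order was the opposite, with 0.816% in its 26 wells and 0.734% in the 8 others. These are descriptions, since the cluster was drawn from the same cells. Acsl1 was at 231 and 354 CPM in the 2 kinds of wells of IR day 3 and at 165 and 368 CPM in those of IR day 14, while Acot13 was at 373 and 378 CPM and at 427 and 321 CPM.

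Other genes of lipid handling were counted from a list of 43, of which 28 were tested in cardiomyocyte-like wells. In IR day 1, 12 were lower, where 9.25% of all genes were. Among them were Cd36 (-2.19 ± 0.49, edgeR adjusted p = 0.00089), a fatty acid receptor of the membrane, and Pdk4 (-3.11 ± 0.71, edgeR adjusted p = 0.0014), the kinase that shuts pyruvate dehydrogenase. At day 3 after IR, 5 were lower and 3 higher, where 2.10% of all genes were lower and 180 of 4281 higher. Fabp4 (-1.90 ± 0.39) and Pdk4 (-1.49 ± 0.35) were lower, and Fabp5 (2.76 ± 0.47), Ucp2 (1.45 ± 0.36) and the lipid droplet gene Plin2 (1.40 ± 0.40) were higher. From day 3 to day 14 of IR, Ucp2 (-3.65 ± 0.52), Fabp5 (-3.09 ± 0.57) and Plin2 (-1.76 ± 0.48) were the 3 genes called. All were lower, where 2.48% of all genes were. At day 14 none of the 28 differed from sham with edgeR.

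MI had 14 lower and 1 higher of the 28, where 22.2% of all genes were lower and 601 of 4281 higher. Lpl, the lipase that frees fatty acids from lipoproteins, had a log2 difference of -6.42 ± 0.78 (edgeR adjusted p = 2.4e-10). Those of Cd36 (-3.81 ± 0.61), Acacb (-5.15 ± 0.90), the mitochondrial acetyl-CoA carboxylase, Pdk4 (-3.74 ± 0.72) and Ppargc1a (-2.91 ± 0.70), a coactivator of PPARα, were also below 0. Ucp2 was the gene called higher (1.93 ± 0.49). Directly against IR day 3, 11 were lower and 0 higher, where 15.9% of all genes were lower. Lpl (-5.92 ± 0.78) and Cd36 (-3.32 ± 0.61) were among the 11.

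Of 22 genes of the tricarboxylic acid cycle and pyruvate dehydrogenase, 11 were lower in IR day 1 and 10 in MI, 0 in IR day 3 and 0 in IR day 14 with edgeR. Of 18 tested genes of glycolysis, 8 were lower in IR day 1, and in MI 6 were lower and 3 higher. Of all genes tested, 9.25% were lower in IR day 1, and in MI 22.2% were lower and 601 of 4281 higher. The median log2 differences in IR day 1 were -1.59 for the cycle and -0.87 for glycolysis, beside -2.29 for the 31 genes and -0.57 for all genes. In MI they were -1.02 and -0.25, beside -1.42 and -0.24. Differences between the lists were not tested.

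**Figure D4:**
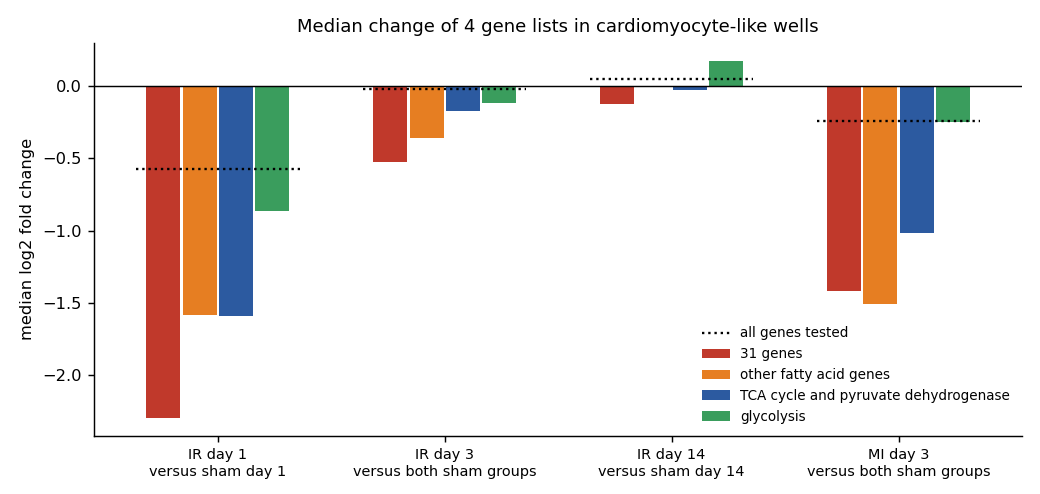
Median log2 difference in cardiomyocyte-like wells (vertical axis) of the fatty acid oxidation genes, other fatty acid genes, cycle genes and glycolysis genes in 4 comparisons, with the median of all genes as a dotted line. The fatty acid oxidation genes are at -2.29, -0.53 and -0.13 in IR at day 1, 3 and 14 and at -1.42 in MI.

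In other cells the set took a smaller share of UMIs. In sham day 1 it was 0.427% ± 0.071 (SD, n = 4 plates) in endothelial-like, 0.203% ± 0.078 (n = 3) in fibroblast-like and 0.160% ± 0.008 (n = 3) in macrophage-like wells. Cardiomyocyte markers took 1.88%, 0.555% and 0.240% of the UMIs of these wells, and the part of cardiomyocyte RNA in these counts was not tested.

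Endothelial-like wells came from 2 clusters, one led by Slc26a10 and Cd300lg and the other by Plvap and Mest, with 77 and 30 wells in sham day 1, 58 and 21 in sham day 14, 28 and 47 in IR day 1, 16 and 18 in IR day 3, 35 and 19 in IR day 14 and 4 and 53 in MI. Comparisons of this class with sham were therefore also comparisons between clusters. In it 20 members were tested. After IR, 11 were lower at day 1 than in sham day 1 (8.71% of 3341 genes were lower), 0 at day 3 (0.419%) and 0 at day 14 (0%), while 17 were lower in MI (18% of genes). With DESeq2 both counts of 0 were the same, and 2 and 1 members had an unadjusted p under 0.05 with edgeR. MI against IR day 3 gave 6 lower members (4.31% of genes). Fabp3 went furthest, from 911 ± 348 CPM in sham day 1 and 925 ± 519 in sham day 14 to 2.28 ± 3.32 in MI, 2 UMIs on 5 plates (log2 difference -8.43 ± 0.66, edgeR adjusted p = 3.7e-12). At day 1 after IR Fabp3 was at 162 ± 173 CPM (-2.86 ± 0.41, adjusted p = 8.3e-06). Cardiomyocyte markers in the same wells moved alongside. They were at 1.88% and 3.15% at days 1 and 14 after sham surgery, at 0.406%, 2.14% and 2.53% at days 1, 3 and 14 after IR, and at 0.0209% in MI.

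Per 100 marker UMIs Fabp3 had 4.76 UMIs in endothelial-like and 3.15 in cardiomyocyte-like wells of sham day 1. In endothelial-like wells of IR day 1 the plates ran from 0.638 to 28.6 and in those of MI from 0 to 3.85, on few marker UMIs. The 3 members not called in MI endothelial-like wells were Cpt1a (72.4 ± 35.3 CPM in sham day 1, 91.4 ± 18.2 in MI, log2 difference from both sham groups 0.08 ± 0.36), Acat1 (126 ± 36 and 122 ± 24 CPM, with 224 ± 72 in sham day 14) and Eci2 (65.6 ± 26.9 and 65.2 ± 31.2 CPM, with 92.7 ± 65.3 in sham day 14). Acat1 was called lower with median-ratio scaling and with DESeq2, which gave 18 members each. In cardiomyocyte-like wells of the same 4 sham day 1 plates Cpt1a was at 19.5 ± 8.5 CPM, a difference between classes that was not tested.

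Macrophage-like wells lay mostly in a cluster led by Saa3 and Ccr2 in IR day 1 (94 wells, against 18 in that led by Gpnmb), mostly in the Gpnmb cluster in IR day 3 (22 against 160) and in both in MI (160 against 118), so comparisons between these groups also compare these clusters. In this class 16 members were tested, and 7 were higher at day 3 than at day 1 after IR, where 14.6% of 5101 genes were. Cpt1a, which sets the pace of fatty acid entry into mitochondria, was at 67.8 ± 25.4 CPM (n = 9 plates) at day 1 and 144.7 ± 42 CPM (n = 6) at day 3 after IR (log2 difference 1.3 ± 0.24, edgeR adjusted p = 0.00015). MI plates held 110 ± 8 CPM (n = 5), higher than IR day 1 (0.85 ± 0.22, adjusted p = 0.015), and it was the 1 member called there, where 4.08% of genes were higher. That call was lost without replicate 3 of IR day 1 or replicate 2 of MI, and there were 2 calls without replicate 5 or 9 of IR day 1. Sham day 1 had 144 ± 58 CPM (n = 3). In cardiomyocyte-like wells of MI Cpt1a had 0 UMIs, which allows up to 24.4 CPM, above its mean in every other group of that class.

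The other 6 higher members at day 3 were Acadl, Fabp3, Hadhb, Acot13, Echs1 and Acadm. Cardiomyocyte markers in macrophage-like wells rose with them, from 0.0607% ± 0.0486 at day 1 to 0.255% ± 0.104 at day 3 after IR, and stood at 0.0352% ± 0.0274 in MI. Against IR day 3, MI had 4 lower members (4.53% of genes were lower), Fabp3 (-2.77 ± 0.38), Hadhb (-1.40 ± 0.25), Acadm (-0.84 ± 0.23) and Acadl (-0.76 ± 0.25). The count was 2 without replicate 4 or 7 of IR day 3 or without any 1 of MI replicates 1 to 4. Fibroblast-like wells were 134 of a cluster led by Cxcl5 and 1 of that led by Pi16 in MI, and 36 and 20 in IR day 3. In them 3 of 20 members were lower in MI than in IR day 3 (5.39% of 5940 genes were), Fabp3 (-4.32 ± 0.59), Hadhb (-1.04 ± 0.27) and Dgat2 (-3.01 ± 0.93). The count was 1 without replicate 4 of IR day 3 or replicate 3 of MI and 5 without replicate 5 of IR day 3. Cardiomyocyte markers there were at 0.444% in IR day 3 and 0.0138% in MI.

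Neutrophil-like wells were found in IR day 1 (106) and MI (49) with 1 further well in sham day 1, and no test was run on them. The set took 0.137% ± 0.057 (n = 9 plates) and 0.122% ± 0.032 (n = 5) of their UMIs. Dgat2 was at 131 ± 115 CPM and 51.1 ± 32.1 CPM and Acsl1 at 156 ± 154 and 115 ± 77 CPM in IR day 1 and MI.

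**Figure D5:**
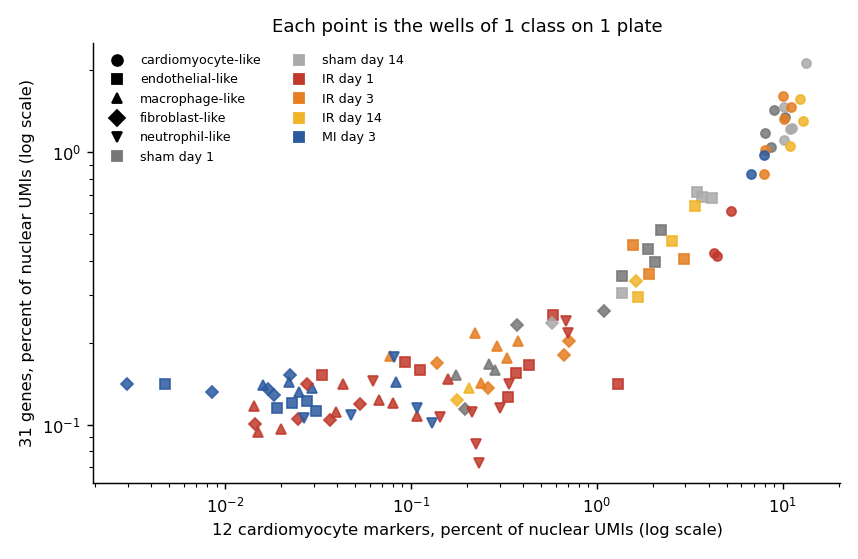
Share of the 12 cardiomyocyte markers (horizontal, log scale) and of the 31 genes (vertical, log scale) in percent of UMIs, 1 point per cell class and plate. Cardiomyocyte-like points lie at the upper right, and endothelial-like points of sham lie between them and the macrophage-like and fibroblast-like points, at a mean of 1.88% markers and 0.427% of the set in sham day 1.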

How the data were processed

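Whole-number UMI counts per gene and well, 1 table per plate, were used as the authors deposited them. The authors aligned reads to GRCm38 with BWA (version not given in the sources used here) and counted UMIs of 6 bases, and the primer captures transcript 3' ends. Mitochondrial genes were left out, as in the study. Counts were read in Python 3.11.15.

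Wells of at least 1000 nuclear UMIs were clustered without the 31 genes (scanpy 1.11.5, leidenalg 0.10.2, 2000 variable genes, 30 components, 15 neighbours, resolution 1). A cluster was named where at least 3 markers of 1 list were at least 2 times higher than elsewhere and no other list had more than a share of 0.5 of that number. A cluster of 181 wells met the rule for fibroblasts but stayed unnamed for its low depth (median 1437 UMIs, where its plates had 11657), and another that met it was left unnamed after its leading genes, not reported here, were seen. Doublets were not called.

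UMIs were summed per plate and class and fitted with edgeR 4.0.16 (quasi-likelihood test, TMM scaling, filterByExpr) in R 4.3.3, in 1 fit per class over all groups, with Benjamini-Hochberg adjustment over all genes tested and a threshold of 0.05. The SE of a log2 difference is its size divided by the root of F. Simulated counts for IR day 3 against both sham groups in cardiomyocyte-like wells, over 3333 genes, gave back 36% of 2-fold and 93.8% of 4-fold changes. Alternatives in all fitted classes were median-ratio (RLE) scaling, DESeq2 1.42.0, no filter, the replicate number as a block, and each plate left out. For cardiomyocyte-like wells only, they were also each sham group alone, other minimums of wells and UMIs, and no Rn45s. The same held for mitochondrial UMIs in the total, wells without markers of other classes, and no matched wells. The minimum of 1 well per plate was chosen after seeing the data.

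All 31 genes were to be named, with full statistics for at most 10 called members per comparison, by adjusted p, and at most 6 called genes of the wider list. Statistics beyond these limits (Hadha, Acadvl and Acot2 in IR day 1, Fabp3, Etfa, Eci2, Hadh, Echs1, Acot13 and Ucp3 in MI, Slc27a1 and Acadm in MI against IR day 3, Plin2 and Ucp2) were added after their values were seen. The members and lists were chosen with earlier results of these data known. Plates differ in depth, and intervals given as SD are over plates.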

Additional observations from a re-analysis of the deposited data

Results flagged for a closer look

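Of 107 sets of 4 to 10 plates examined for a plate far from the others, 13 held one. The number of about 5.35 by chance holds for normal values and independent sets. Some genes here had few UMIs and the sets share plates, so 13 cannot be set against it. In sham day 1, replicate 4 was low for Hadh (194.253 CPM, 27 UMIs, others 381 to 397) and Acat1 (172.669 CPM, others 287 to 303) in cardiomyocyte-like wells. In sham day 14, replicate 5 was high for Fabp3 (4251.22 CPM, others 2071 to 2471), Hadha (1035.4 CPM) and Etfdh (535.971 CPM), and its Rn45s share was 3.59%. Replicate 6 of that group was high for Ppara (273.349 CPM, 3 UMIs). In IR day 3, replicate 3 was high for Etfa (1771.62 CPM, 11 UMIs) and Acot2 (161.057 CPM, 1 UMI), replicate 4 for Cpt1b (1.17511 CPM, 1 UMI) and replicate 6 for Ucp3 (82.3981 CPM, 5 UMIs). The summed share of the 31 genes was low in endothelial-like wells of sham day 14 replicate 2+7 (0.304%), high in those of IR day 1 replicate 5 (0.253%) and high in neutrophil-like wells of MI replicate 5 (0.178%).

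The effect of IR at day 1 was set against that at day 14 in a test of the difference itself (edgeR, cardiomyocyte-like wells). It was lower for 13 of 29 members, where 5.23% of all genes were, and for 3 under median-ratio scaling. Tests of this kind rest on the same 3 fitted plates of IR day 1. The log2 differences of the effects were -2.34 for Fabp3, -3.14 for Dgat2, -3.07 for Etfa, -2.43 for Acadm, -2.07 for Ech1, -2.82 for Etfdh, -2.34 for Acsl1, -3.71 for Acads, -3.52 for Eci2 and -1.77 for Hadha. Those of Slc27a1 (-7.84), Mlycd (-7.37) and Acot2 (-6.90) depend on the prior count, since IR day 1 had 0 UMIs. Against day 3 the effect was lower for 7 members, where 2.31% of all genes were, and for 2 under median-ratio scaling. The 7 differences were -3.14 for Etfa, -1.81 for Fabp3, -2.64 for Dgat2, -2.06 for Acadm, -3.72 for Eci2, -1.66 for Hadhb and -6.92 for Mlycd. The last had again 0 UMIs in IR day 1.

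In wells left unnamed by the clustering, the 31 genes held 0.377% of UMIs in IR day 3 and 0.439% in IR day 14, against 0.312% in sham day 1, 0.147% in sham day 14, 0.162% in IR day 1 and 0.128% in MI. These differences were not tested.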

How the results depend on the processing

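In cardiomyocyte-like wells, the count of members called in IR day 1 against sham (24) was 12 with RLE scaling, 8 with DESeq2, 14 with at least 1 well per plate, 11 with at least 10 (which leaves 1 plate of IR day 1, assumed to vary like the other groups) and 7 in wells of at least 2000 UMIs. For IR day 3 (2) it was 4 against sham day 1 alone, 0 against sham day 14 alone, 0 without a filter, 0 with at least 1 well, 5 with at least 10 and 1 with DESeq2 (Ech1, neither Plin5 nor Acot2). MI against IR day 3 (7) gave 4 without wells carrying markers of other classes, and IR day 14 against day 3 (0) gave 1 with at least 10 wells. In macrophage-like wells, MI against IR day 1 (1) gave 7 without a filter and 2 with DESeq2, and MI against IR day 3 (4) gave 2 without a filter. Fibroblast-like wells (3) gave 5 with DESeq2. At least 10 wells left no MI plate, and those fits were not run. The cause of these changes was not tested.

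With the replicate number as a replicate block, counts were 0 for IR day 3 and 10 for MI against sham, 2 for MI against IR day 3 (Acsl1 and Dgat2), and 4, 0 and 2 for the macrophage comparisons IR day 3 to IR day 1, MI to IR day 1 and MI to IR day 3, and 1 for fibroblasts. The numbers do not pair the plates: 26 same-numbered pairs of plates had correlations with a median of -0.00359 (-0.0792 to 0.131), against 0.00108 for the 172 others.

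The difference in summed share for IR day 1 (-0.766 percentage points) was -0.0112 with at least 1 well per plate, -1.03 without Rn45s and -0.147 with mitochondrial UMIs in the total. With the latter, MI against sham turned from -0.435 to 0.589 and MI against IR day 3 from -0.346 to 0.495. Without Rn45s these were -0.843 and -0.547.

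Leaving out 1 plate gave 14 to 23 called members for IR day 1, 0 to 4 for IR day 3, 4 to 17 for MI, 2 to 8 for MI against IR day 3, and 0 to 0 for both IR day 14 comparisons. Endothelial-like wells gave 8 to 13 for IR day 1, 15 to 18 for MI and 4 to 7 for MI against IR day 3. Macrophage-like wells gave 5 to 7 for IR day 3 against day 1, 0 to 2 for MI against IR day 1 and 2 to 4 for MI against IR day 3, and fibroblast-like wells 1 to 5. Single genes were followed through the alternatives only for called members in cardiomyocyte-like wells, at most 10 per comparison, by adjusted p. Of their values, 482 kept their direction and side of the threshold and 66 kept the direction only. None of these members changed direction there. The other called members were not followed in this count. The cardiomyocyte-like sums of IR day 1 and MI rest on 23 and 12 wells, and 36% of simulated 2-fold changes were recovered for IR day 3, so changes of that size can be missed.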

Other observations

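Wells of at least 200 but under 1000 nuclear UMIs, which entered no comparison, held the 31 genes at 1.42% of UMIs in sham day 1 and 1.25% in sham day 14. After IR they held 0.306%, 0.784% and 1.3% at days 1, 3 and 14, and after MI 0.152%. The cell types of these wells were not determined.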
